A study of Mus musculus with 4 samples.

Results

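CD8 single-positive (CD8 SP) thymocytes are the αβ T cells of the thymus that have been selected on MHC class I and have shut off the CD4 coreceptor. Here they were the cells with at least 2 unique molecular identifiers (UMIs, each marking 1 captured transcript) of Cd8a and Cd8b1 together, at least 3 UMIs summed over the 6 marker genes Nkg7, Ctsw, Runx3, Klrd1, Itgae and Dapl1, and none of Cd4, Rag1, Foxp3, Trdc, Cd79a, C1qa, C1qb or C1qc. The rule found 528 cells among the 31722 that had at least 200 genes, at least 1500 UMIs and at most 10% mitochondrial UMIs, of 57354 in the 4 matrices. The libraries were droplet single-cell RNA-seq of whole thymocyte suspensions, captured at the 3′ end of transcripts. In 2 libraries, named control 1 and control 2, both Tox4 alleles were floxed and no Cre was present (genotype Tox4;F/F). In the other 2, named cKO 1 and cKO 2, the same floxed alleles were combined with an Lck-Cre transgene (Tox4;F/F;Lck+), whose proximal Lck promoter is active from the double-negative stage on, so that every αβ thymocyte stage described here lies downstream of the deletion and non-T cells of the same thymus are not its target. The mice were young adult littermates. The study describes 2 pairs of control and cKO mice, the labels do not say whether the replicate numbers mark those pairs, and the p-values below measure the spread between these libraries.

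The coreceptor programs of the thymus are set after positive selection. Signals through the T cell receptor (TCR) and the receptor for IL-7 lead a cell selected on MHC class I to express Runx3, which represses Cd4 and the CD4-lineage factor ThPOK (Zbtb7b) and opens genes of cytotoxic T cells. The cell then matures in the medulla, loses the chemokine receptor Ccr9, gains Klf2 and its target S1pr1, the receptor that lets it leave for the blood, and raises MHC class I. Immature CD8 cells that precede the double-positive (DP) stage also carry CD8 without CD4, and lack these markers.

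The members were spread over all 4 libraries, with 87 in control 1, 134 in control 2, 139 in cKO 1 and 168 in cKO 2. Their median depth was 8268, 7334, 6957 and 5492.5 UMIs per cell in that order, on 2605, 2385.5, 2330 and 2034.5 genes. They were deeper than the cells they are compared with: CD4-gated cells, chosen by Cd4 and CD3 transcripts without CD8, had medians of 3824 to 5427.5 UMIs, and resting DP-gated cells, chosen by Cd4, CD8 and Rag1 without the mitotic genes Mki67 and Top2a, had 2340.5 to 3244. The 2 comparison gates held 700 and 9759 cells. Like the rule, both left out any cell with Foxp3, Trdc, Cd79a, C1qa, C1qb or C1qc UMIs, and the CD4 gate also any with Rag1. The 4 matrices held 42716798 to 62007453 UMIs each, and summed over members 784634 to 1089402 UMIs per library stood behind the values below, given as CPM (UMIs of a gene scaled by those sums to a common total). Mitochondrial UMIs were over the limit in 48.3% and 20.6% of control cells and in 46.1% and 23.1% of cKO cells, so the library numbered 1 was the more strongly filtered in both genotypes. Each pair of libraries shared 36 to 70 cell barcodes, and no member's barcode recurred.

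The values that chose the members are a description and were not tested. Cd8a, the α chain of the CD8 coreceptor, measured 737, 749, 683 and 786 CPM in control 1, control 2, cKO 1 and cKO 2, the order used throughout, and Cd8b1, the β chain, 881, 1095, 1031 and 1049 CPM. Nkg7, which takes part in the release of cytotoxic granules, stood at 422, 424, 539.8 and 445 CPM in members and 5.09 to 38.5 CPM in CD4-gated cells. Runx3 stood at 280.4, 296, 355 and 323 CPM against 27.4 to 61.8. For both genes every member library lay above every CD4-gated one. The integrin αE chain Itgae measured 109.6, 95.6, 137 and 140.5 CPM against 0 to 5.34 in CD4-gated cells. Ctsw, a cathepsin of cytotoxic cells, measured 322, 336, 308 and 318 CPM against 83.9 to 105. Klrd1, the CD94 chain of natural killer receptors, measured 75.2, 69.0, 128 and 73.6 CPM, and Dapl1 62.4, 46.9, 134 and 69.8 CPM. For Klrd1 and Dapl1 the highest library was cKO 1. At the edge of the rule, 86 cells that met every other condition had 2 marker UMIs and stayed outside, 63 had 3 and 43 had 4. Likewise 35 cells had 1 CD8 UMI and stayed outside, while 28 had 2. A single Cd4 UMI kept out 109 cells, and 2 Cd4 UMIs kept out 21.

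The promoters of 3 genes that define the coreceptor lineages are shown because Runx proteins bind a short core motif. Each is 250 bases before to 50 bases after the start of a RefSeq transcript on GRCm38.p6, written along the strand of the gene, with the Runx core hexamer (TGTGGT or its reverse complement ACCACA) in capitals. Nkg7 lies on the plus strand at chr7:43436888-43437187, Runx3 (upstream start) on the plus strand at chr4:135120395-135120694, and Zbtb7b on the minus strand at chr3:89387622-89387921.
Nkg7: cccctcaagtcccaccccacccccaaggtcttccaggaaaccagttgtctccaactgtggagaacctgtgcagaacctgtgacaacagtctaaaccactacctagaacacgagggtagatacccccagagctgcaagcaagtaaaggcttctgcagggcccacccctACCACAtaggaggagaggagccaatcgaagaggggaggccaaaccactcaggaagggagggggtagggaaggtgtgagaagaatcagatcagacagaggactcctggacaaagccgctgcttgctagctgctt
Runx3: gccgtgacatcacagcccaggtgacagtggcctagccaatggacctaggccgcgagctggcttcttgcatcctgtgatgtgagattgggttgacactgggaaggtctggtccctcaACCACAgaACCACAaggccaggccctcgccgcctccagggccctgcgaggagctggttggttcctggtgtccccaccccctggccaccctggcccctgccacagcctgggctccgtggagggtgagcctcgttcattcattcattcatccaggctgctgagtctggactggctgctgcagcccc
Zbtb7b: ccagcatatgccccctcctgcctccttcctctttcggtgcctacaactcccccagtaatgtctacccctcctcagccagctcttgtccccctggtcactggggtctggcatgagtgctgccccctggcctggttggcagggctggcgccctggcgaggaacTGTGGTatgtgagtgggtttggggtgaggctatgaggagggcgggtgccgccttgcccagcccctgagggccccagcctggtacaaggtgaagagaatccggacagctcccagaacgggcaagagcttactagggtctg
These Nkg7 and Zbtb7b windows held 1 match each and this Runx3 window 2. They were chosen because they hold a match: the other start of Runx3 in the table (chr4:135152295-135152594), the other start of Zbtb7b (chr3:89393329-89393628) and the Cd8a start held none. Of 32851 promoters in the RefSeq table, 5506 (16.8%) held the hexamer on either strand. The share was 13.7% (92 of 671) among promoters of genes higher in members than in CD4-gated cells and 12.1% (70 of 578) among those lower, both below the share of all promoters. A match is a description of the letters and not a binding site.

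Other cell types were checked through their marker genes. T cell identity was carried by CD3 and Trac transcripts in 509 of 528 members, and the members were poor in transcripts of the CD4 lineage (107 to 159 CPM summed over the list, against a mean of 903 CPM in CD4-gated cells) and of DP cells (248 to 347 against 7105 in DP-gated cells). The gates fixed a part of both, since Cd4 was at 0 in members by the rule and made up a mean of 360 of the CPM in CD4-gated cells, and Cd4 and Rag1, both at 0 in members by the rule, made up means of 771 and 1950 in DP-gated cells. Of 8 genes of the immature pre-DP stage 7 were detected in members, and only Erg was at 0 in every library. Of 10 innate-like T and natural killer genes 9 were detected, and only Ncr1 was at 0. Of 4 neutrophil genes 2 were detected, with Ly6g and Retnlg at 0. The γδ T cell list measured 12.9 to 51.4 CPM, against a mean of 53.03 in CD4-gated cells. Some lists were higher in members than their mean in CD4-gated cells, the innate-like T and natural killer list at 131 to 179 against 69.5, the B cell list at 193 to 249 against 97.0 and the regulatory T cell list at 353 to 372 against 248, and their part in the comparison of the gates was not tested. The immature list measured 111 to 174 CPM against 135, erythroid genes 6.44 to 16.5, epithelial genes 8.26 to 20.3 and neutrophil genes 0 to 7.34. Free RNA was read from 29 B cells, in which CD8 UMIs were between 0.523 and 1.81 CP10K (per cell total scaled as for members), against 16.2 to 18.4 CP10K in members. The rule's marker genes summed to 0.523 to 2.81 CP10K in the B cells, highest in control 1, and to 12.7 to 16.01 in members.

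Transcripts of dendritic cells were uneven across the libraries. The mononuclear phagocyte list summed to 1594 CPM in control 1, 1404 in control 2, 320 in cKO 1 and 829 in cKO 2, with C1qa, C1qb and C1qc at 0 by the rule. The dendritic cell list summed to 252, 304, 58.7 and 236 CPM. Most of this RNA lay in 6 members (1, 2, 1 and 2 per library) with at least 20 UMIs of Cst3, Cd74 and H2-Aa, a limit set after the data were seen. They held 1234, 1633, 231 and 838 UMIs of these genes, and all other members together held 140, 176, 164 and 223. Without the 6, the phagocyte list measured 150 to 216 CPM and the dendritic list 7.61 to 16.8. Calls that ended without them are named below.

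The study asked how loss of Tox4, a DNA-binding partner of the PNUTS-PP1 phosphatase complex that acts on RNA polymerase II, changes thymocyte development, and CD8 cells were among the stages in question. Members made up 1.57% of cells within the quality limits in control 1 (95% exact binomial interval 1.26 to 1.93), 1.58% in control 2 (1.33 to 1.87), 2.17% in cKO 1 (1.83 to 2.56) and 1.49% in cKO 2 (1.27 to 1.73). The cKO libraries thus lay on either side of the controls. The group means were 1.57% ± 0.0105 and 1.83% ± 0.481 (SD, n = 2 libraries each), a difference of 0.256 percentage points (exact permutation test over libraries, two-sided, p = 1, the smallest possible with this design being 0.333). The number of CD4-gated cells per CD8 SP cell was 0.713, 1.60, 0.770 and 1.88. Each cKO library lay above the control of the same number here, but below it after every cell was thinned to 1500 UMIs (3.06, 4.84, 2.30 and 4.59). At a marker sum of at least 4, and with 1 UMI of the other coreceptor allowed in each gate, cKO 1 lay below control 1. The mean ratio was 1.16 ± 0.631 in controls and 1.33 ± 0.786 in cKO (difference 0.167, exact permutation p = 0.667), and the difference turned to −0.505 when every cell was first thinned to 1500 UMIs. Intervals cover counting error only, and the mitochondrial limit removed unequal shares of the libraries.

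**Figure D1:**
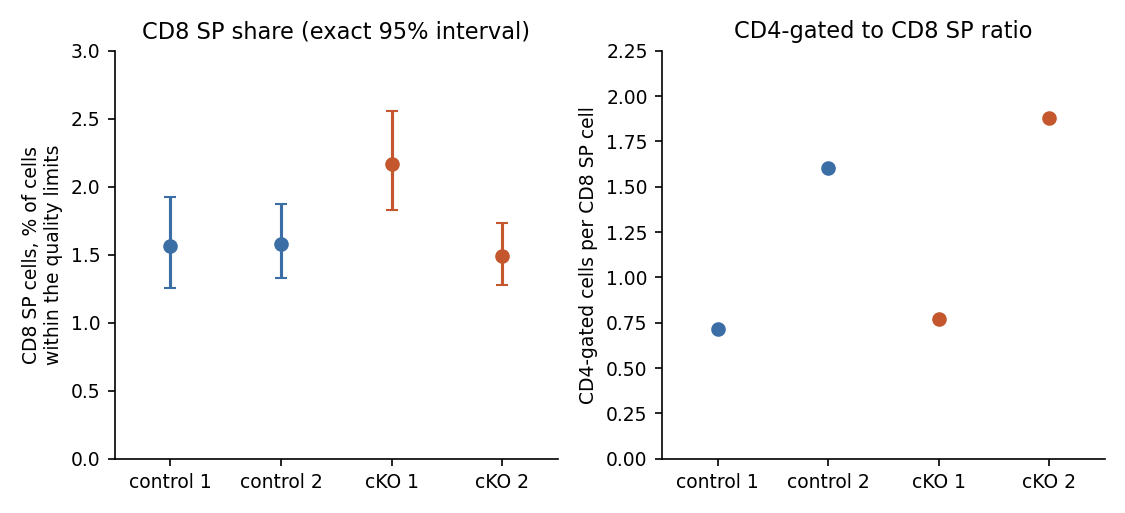
Left, CD8 SP cells as a percent of cells within the quality limits in each library, with 95% exact binomial intervals (counting error only), and right, the number of CD4-gated cells per CD8 SP cell. The controls sit at 1.57% and 1.58%, and the cKO libraries at 2.17% and 1.49%, above and below them.

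The comparison with CD4-gated cells of the same libraries asked which genes differed between CD8 SP cells and cells gated as the other single-positive lineage. The CD4-lineage genes Zbtb7b and Cd40lg were low, 9 of 14 MHC class I genes and 12 of 19 proliferation genes were called higher, and Cd5, Cd28 and Il7r were lower. With edgeR's quasi-likelihood test, library as a block and Benjamini-Hochberg adjustment over 7832 genes, 1180 genes differed at adjusted p under 0.05 (15.1%), 661 higher (8.44%) and 519 lower (6.63%) in CD8 SP cells, and 1204 of 7798 without the 6 members with dendritic RNA (15.4%, with 8.68% higher and 6.76% lower). Fold changes below are log2 values of CD8 SP over CD4-gated cells with their standard error, from n = 4 libraries. The median over all genes tested was −0.01. CD8 SP cells were the deeper of the 2 gates, and the part of depth per cell in these values was not tested. The gates were not matched for maturation either. The CD8 SP rule asked for marker genes, among them Nkg7 and Dapl1, and the CD4 gate set no such condition. Some genes named below, such as H2-K1, Satb1 and Bcl11b, also differed among the members themselves. The part of maturation in these values was not tested.

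Of the lineage factors, Zbtb7b, which encodes ThPOK and commits cells to the CD4 lineage, measured 5.10, 4.60, 1.84 and 0.969 CPM in members and 87.6, 66.4, 52.6 and 90.8 CPM in CD4-gated cells. Its fold change was −4.47 ± 0.29 (adjusted p = 2.7e-11). Every CD4-gated library lay above every CD8 SP library. Cd40lg, the helper cell ligand of CD40, measured 1.27, 4.60, 2.75 and 5.81 CPM against 49.3, 66.4, 81.4 and 75.5 CPM (−4.06 ± 0.27, adjusted p = 3.7e-11). Of 19 tested genes of the CD8 lineage list, 12 fell and none rose, with a median of −0.54. They included factors that both lineages use: Gata3 (−1.58 ± 0.17), Satb1 (−0.91 ± 0.05), Bcl11b (−0.76 ± 0.07) and Ets1 (−0.75 ± 0.06). Runx3 itself belongs to the rule and is not among the genes tested.

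Genes with the largest rises that did not depend on dendritic RNA were led by Lcn4, of the lipocalin carrier family, at 30.6, 52.4, 76.2 and 55.2 CPM in members and 10.9, 2.46, 6.78 and 1.53 CPM in CD4-gated cells (3.88 ± 0.33, adjusted p = 4.3e-09). It was higher in members in every library. Plac8, a small cysteine-rich protein, measured 166, 96.5, 229 and 219 CPM against 2.74, 25.4, 37.3 and 23.7 (2.90 ± 0.19). The actin cross-linker Actn2 measured 65.0, 69.0, 75.3 and 87.2 CPM against 10.9, 4.10, 20.3 and 13.7 (2.82 ± 0.23), and the adhesion molecule Jaml 96.9, 61.6, 74.4 and 53.3 against 16.4, 13.9, 10.2 and 6.87 (2.64 ± 0.21). For each of these the lowest CD8 SP library exceeded the highest CD4-gated one. Glipr2 rose by 2.20 ± 0.18, Ly6c2, a surface antigen of memory-type CD8 cells, by 2.09 ± 0.30 (3.13 without control 2), Cxxc5 by 1.81 ± 0.25, the cytokinesis gene Racgap1 by 1.69 ± 0.20 and the endosomal gene Ehd1 by 1.72 ± 0.24. The chemokine gene Xcl1, whose receptor is carried by cross-presenting dendritic cells, measured 25.5, 146, 132 and 16.5 CPM against 2.74, 1.64, 42.4 and 3.05 CPM (3.14 ± 0.35). It rested on few cells, since the 2 richest members held 65.0%, 85.5%, 85.4% and 82.4% of its UMIs in the libraries, and the change was 1.98 without control 2 and 4.84 without cKO 1. H2-Eb1, H2-Aa, H2-Ab1 and Cd74, the MHC class II genes and their invariant chain, had fold changes of 4.17, 4.002, 3.62 and 3.23 with all members and −0.19, −0.15, −0.37 and 0.14 without the 6.

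Among the genes that fell most, Itm2a, a membrane protein induced at positive selection, measured 231, 119.5, 100.05 and 114 CPM in members and 1439.5, 1203, 1292 and 1114 CPM in CD4-gated cells (−3.13 ± 0.10, adjusted p = 3.0e-17). Cd28, the costimulatory receptor, measured 152, 160.0, 159.7 and 118 CPM against 566, 435, 466 and 459 (−1.61 ± 0.09). The gates did not overlap for either gene. Tnfrsf4, the costimulatory receptor OX40, fell by 3.20 on the log2 scale, the oxysterol receptor Gpr183 by 1.62, the integrin β3 chain Itgb3 by 2.02, Tmem64 by 1.63 and the unnamed transcript B630019A10Rik by 2.11. Ckb, a creatine kinase, entered this group only without the 6 members (−1.69 ± 0.12). Hbb-bs, a globin of red cells, measured 5.10, 3.68, 12.9 and 12.6 CPM in members and 5.47, 9.02, 259 and 16.02 CPM in CD4-gated cells (−2.73 ± 0.42), with 1 CD4-gated library far above the others, and without either cKO library it did not pass the filter on low counts.

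**Figure D2:**
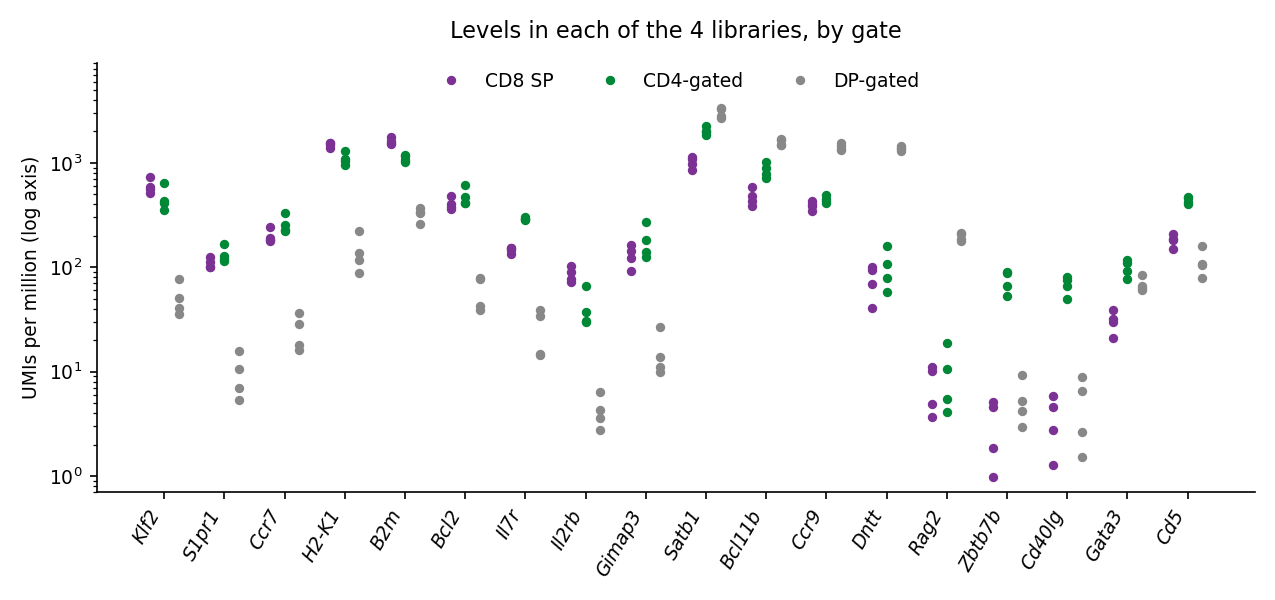
Levels of 18 genes named in the text, as CPM on a log axis, with 1 point per library for CD8 SP (purple), CD4-gated (green) and DP-gated cells (grey). Zbtb7b and Cd40lg lie at or below 5.81 CPM in all CD8 SP libraries and at 49.3 CPM or more in all CD4-gated ones, while Klf2, S1pr1 and H2-K1 set the DP-gated cells apart from both.

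Antigen presentation by MHC class I stood higher in CD8 SP cells: 9 of 14 tested genes rose and none fell, with a median of 0.51. H2-Q7, a nonclassical class I gene, measured 182, 195, 236 and 232 CPM against 87.6, 96.0, 100.02 and 67.1 CPM (1.39 ± 0.12, adjusted p = 6.2e-09). The libraries of the 2 gates did not overlap. The classical heavy chains H2-K1 (0.55 ± 0.06) and H2-D1 (0.55 ± 0.07), the light chain B2m (0.63 ± 0.05) and the immunoproteasome subunit Psmb9 (0.59 ± 0.09) rose together. Interferon-stimulated genes rose in 9 of 23 cases and fell in 1, with a median of 0.29, among them Ifi206 (0.59 ± 0.11) and Bst2 (0.50 ± 0.10). Of cytotoxic and innate-like effectors only 6 of 23 passed the filter on low counts, 4 rising and 1 falling. The CD8 SP rule itself asked for genes of cytotoxic cells, among them Nkg7 and Ctsw, and so favoured cells with such effectors. These rises therefore describe the gated cells and are no separate support for their identity. Cst7, an inhibitor of granule cathepsins, measured 20.4, 19.3, 34.0 and 30.0 CPM against 0, 4.92, 3.39 and 2.29 (3.08 ± 0.38, or 3.75 without control 2). Perforin (Prf1) rose by 1.72 ± 0.37, and the granzyme Gzma fell by 0.96 (log2), a value that turned to 0.10 when 1 UMI of the other coreceptor was allowed in each gate.

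Receptors of survival signals and of the TCR differed in level. Il7r, the α chain of the IL-7 receptor, measured 154, 146, 154 and 133 CPM in CD8 SP and 304, 282, 287 and 291 CPM in CD4-gated cells (−0.91 ± 0.09, adjusted p = 6.3e-08). Il2rb, the β chain shared by the IL-2 and IL-15 receptors, went the other way, at 76.5, 71.7, 102 and 89.1 CPM against 65.7, 36.9, 30.5 and 29.8 (1.26 ± 0.18). The 2 gates did not overlap for either. Of 15 tested cytokine receptor genes, 1 rose and 5 fell, Il6ra by 1.27 on the log2 scale (median −0.13). Cd5, a negative regulator whose level follows TCR signal strength, measured 185, 149, 207 and 184 CPM against 465, 476, 400.1 and 423 (−1.21 ± 0.10, adjusted p = 2.6e-09). In proximal TCR signalling 2 of 19 genes rose and 4 fell (median −0.11), with Cd6 at −0.49 ± 0.09 and the adaptor Grap2 at 0.42 ± 0.10. TCR signal response genes fell in 6 of 15 cases and rose in none (median −0.45), the nuclear receptor Nr4a1 by 0.96. The 4 tested TCR and CD3 genes that the CD4 gate did not use all fell, with a median of −0.24, and 3 of them passed without the 6 members.

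Of 19 tested genes from the 22 proliferation genes that the study scored, 12 rose in CD8 SP cells and none fell (median 0.61). Mcm5, a subunit of the replication helicase, rose by 1.26 ± 0.16, topoisomerase Top2a by 1.03 ± 0.18, the proliferation marker Mki67 by 0.83 ± 0.20 and Hmgb2 by 0.61 ± 0.08. Without cells of either gate that held Mki67 or Top2a UMIs, 759 genes in all differed and the value of Hmgb2 was 0.0097 (adjusted p = 0.97). Homing genes were mixed, 7 of 16 higher and 4 lower (median 0.08): Itgb7 (0.79 ± 0.10), the selectin ligand Selplg (0.68 ± 0.09) and Klf2 (0.47 ± 0.07) rose, and Ccr7 fell by 0.28. In the GIMAP GTPases, which support lymphocyte survival, Gimap5 rose from 65.6 to 76.6 CPM to 161, 133, 128 and 86.2 CPM (0.86 ± 0.13) while 4 of 8 fell, Gimap4 by 0.66. Immediate-early and heat shock genes rose in 3 and fell in 2 of 14 cases (median 0.22), Fos at 1.40 ± 0.26, or 0.87 without the 6 members (adjusted p = 0.054), and Dusp1 at −0.87 ± 0.19. Tox, the family member needed for CD4 development, measured 141, 141, 116 and 121 CPM against 255, 276, 217 and 256 (−0.88 ± 0.09). It was 1 of 2 genes to fall among 7 of the Tox family and the PNUTS-PP1 complex, and none rose. Of 15 p53 targets none rose and 4 fell (median −0.27). In the remaining lists none of 19 apoptosis genes rose and 1 fell (median −0.13, Birc3 at −0.63 ± 0.21), and of 22 RNA polymerase II elongation genes 1 rose and 2 fell (median −0.02). The count of 1180 fell to 162 under a mitochondrial limit of 5%, to 389 with DESeq2 and to 722 without cKO replicate 2. Leaving out 1 library ended some calls of named genes: those of Prf1 and Trbc1 (without cKO 2), Trac (without cKO 2 or either control), Gzma and Mki67 (without either cKO library), Birc3 (without either control) and Ccr7 (without any 1 library, and without the 6 members). The call of Gzma also ended with 1 UMI of the other coreceptor allowed, at a marker sum of at least 2, without UMI outliers and with CD3 and Trac transcripts required, that of Trbc1 without cycling cells, that of Birc3 without cycling cells or without top doublet scores, and that of Ccr7 at a marker sum of at least 4, without the filter on low counts and with CD3 and Trac transcripts required. At the mitochondrial limit of 5% the calls of H2-K1 (0.21, adjusted p = 0.37), H2-D1 (0.35, adjusted p = 0.11), Ifi206, Bst2, Klf2, Hmgb2, Top2a, Mki67, Mcm5, Tox, Nr4a1, Cd6, Grap2, Selplg, Gimap4, Gimap5, Dusp1, Birc3, Ccr7, Gpr183, Ckb, Racgap1, Ehd1, Trac and Trbc1 ended, and with DESeq2 those of Prf1, Top2a, Mki67, Grap2, Dusp1, Birc3, Ccr7, Gzma, Hbb-bs and Trac.

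**Figure D3:**
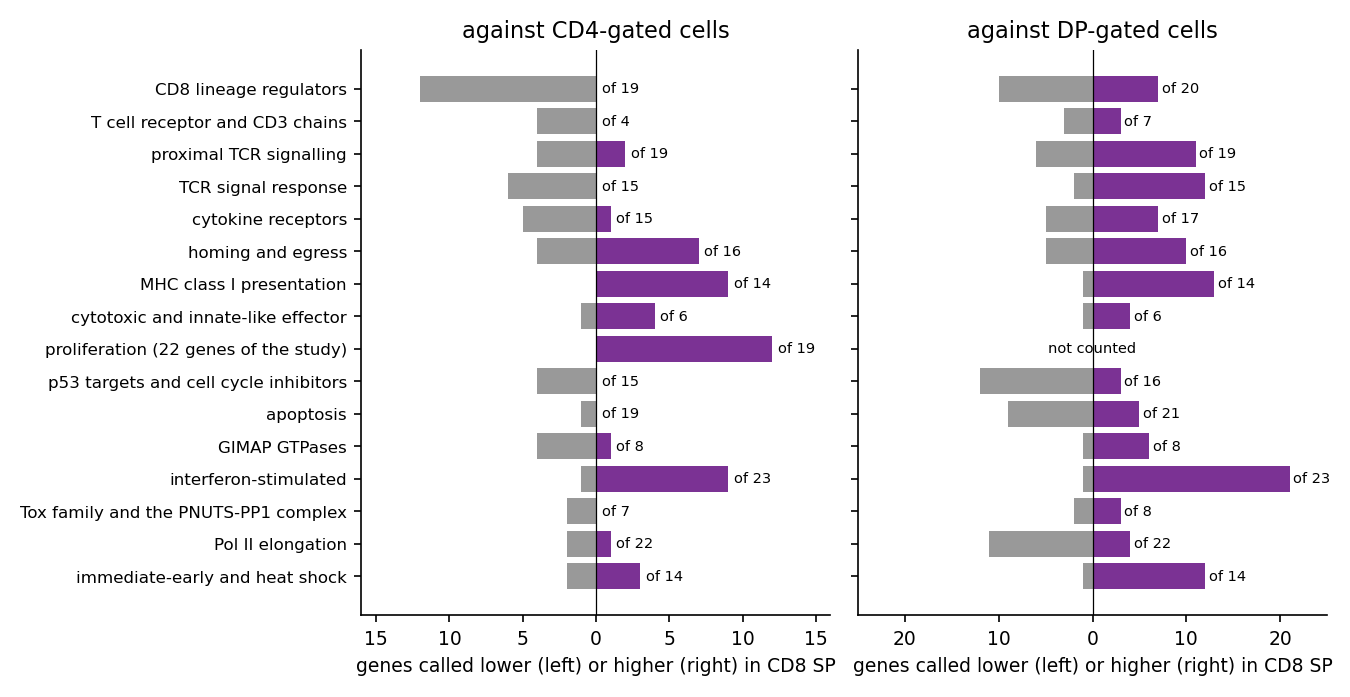
Number of genes of each list called lower (grey, to the left) or higher (purple, to the right) in CD8 SP cells than in CD4-gated and in DP-gated cells, with the number tested beside each bar. Against CD4-gated cells 12 of 19 CD8 lineage regulators lie to the left and 9 of 14 MHC class I and 12 of 19 proliferation genes to the right, and against DP-gated cells 21 of 23 interferon-stimulated genes lie to the right.

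Against resting DP-gated cells, the stage before selection, CD8 SP cells showed higher MHC class I, interferon-stimulated and egress genes and lower Rag2, Dntt and Ccr9. The falls of Rag2 and Dntt were in part fixed by the gates, which were set on Rag1. Of 10003 genes tested with edgeR as above, 5725 differed (57.2%), 2866 higher (28.7%) and 2859 lower (28.6%), with a median over all genes of −0.05, so counts within lists are read against that share. A mitochondrial limit of 5% left 3210 calls. Genes of either gate were left out, and proliferation genes were not counted here because the DP gate required Mki67 and Top2a at 0.

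Klf2, the factor that directs egress, measured 511, 732, 564 and 580.4 CPM in CD8 SP and 76.5, 40.3, 51.2 and 36.0 CPM in DP-gated cells (3.92 ± 0.15, adjusted p = 8.9e-14). Its target S1pr1 measured 101, 100.2, 125 and 113 CPM against 15.8, 5.30, 10.6 and 7.01 (3.90 ± 0.18), and Ccr7, which guides cells to the medulla, differed by 3.40 ± 0.17. Ccr9, the receptor of cortical thymocytes, went down, at 401, 429, 342 and 387 CPM against 1339.7, 1465, 1351 and 1547 (−1.55 ± 0.07). No CD8 SP library overlapped a DP-gated one for Klf2, S1pr1 or Ccr9. Of 16 homing genes 10 rose and 5 fell (median 0.82). The genes with the largest rises also included Cd7, at 187, 142, 152 and 188 CPM against 10.6, 3.67, 5.21 and 5.35 (5.12 ± 0.15), Ms4a4b, at 1212, 990.2, 1198 and 987 against 114, 40.1, 88.8 and 52.9 (4.31 ± 0.13), and Smad7, an inhibitor of TGF-β signalling (4.22 ± 0.15). Among the largest falls was that of Slc7a11, the cystine transporter, at 1.27, 4.60, 2.75 and 3.88 CPM against 306, 512, 449.9 and 509 (−6.80 ± 0.16). Ldlrad3 had 0, 0, 2 and 2 UMIs in members and a mean of 77.3 CPM in DP-gated cells. The transcripts Gm32004 (1, 1, 0 and 0 UMIs), Gm12305 (2, 2, 0 and 0) and E430002N23Rik (1, 2, 1 and 2) had means of 65.2, 71.6 and 83.7 CPM there. Like Ldlrad3, these transcripts were called lower at member levels too near 0 for a fold change.

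Of 14 MHC class I presentation genes 13 rose and 1 fell (median 1.87). H2-K1 measured 1564, 1385, 1540.3 and 1496 CPM against 221, 87.6, 138 and 117 CPM in DP-gated cells (3.80 ± 0.12), H2-Q7 rose by 4.53 ± 0.15, H2-D1 by 2.87 ± 0.08 and B2m by 2.65 ± 0.07. Interferon-stimulated genes rose in 21 of 23 cases (median 2.19), with Ifi27l2a at 3.33 ± 0.12 and Ly6e the single gene to fall (−0.59 ± 0.07). Both shares exceeded the 57.2% of all genes called. Bcl2, which protects from apoptosis, measured 358, 399.9, 374 and 479 CPM against 79.5, 42.5, 76.5 and 39.1 (3.15 ± 0.16). Among 17 cytokine receptor genes 7 rose, including Il7r (2.96 ± 0.16) and Il2rb (4.67 ± 0.18), and 5 fell, including the cytokine signalling inhibitor Socs1 (−1.89 ± 0.10). TCR signal response genes rose in 12 of 15 cases (Cd69 2.11 ± 0.17, Egr1 1.25 ± 0.19) and fell in 2, and immediate-early and heat shock genes rose in 12 of 14. Of 8 GIMAP genes 6 rose, Gimap3 by 3.46 ± 0.14 and Gimap4 by 3.02 ± 0.11, and Gimap9 fell by 0.69. Of 6 tested cytotoxic effectors 4 rose and 1 fell (median 3.05), in members chosen by genes of cytotoxic cells.

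Recombination and DP-stage genes were lower in all 5 tested cases (median −3.89), with Dntt, the template-independent polymerase of V(D)J joints, at −3.89 ± 0.14, Rag2 at −4.44 ± 0.17 and Arpp21 at −5.04 ± 0.14. The DP gate required Rag1 and Cd4 and the CD8 SP rule allowed neither, so the gates fixed a part of these falls. Lineage regulators were mixed, 7 of 20 higher and 10 lower (median −0.49): Satb1 (−1.26 ± 0.07), Bcl11b (−1.42 ± 0.07) and Tcf7 (−1.43 ± 0.07) fell while Lef1 (0.85 ± 0.07) and Eomes (4.85 ± 0.60) rose. In the TCR itself Trac (0.58 ± 0.07) and Cd3g (0.57 ± 0.06) rose and Trbc1 (−1.17 ± 0.07) fell. Of the TCR signalling genes 11 of 19 rose and 6 fell (median 0.24), the falls including the kinase Lck (−1.03 ± 0.06) and the positive selection adaptor Themis (−2.26 ± 0.07). The Tox family member Tox3 fell, at 0, 0.919, 0 and 0 CPM in members against 12.2 to 19.4 CPM in DP-gated cells, levels too near 0 for a fold change, and the PNUTS gene Ppp1r10 fell by 0.58 on the log2 scale, 2 falls beside 3 rises among 8 genes. Of p53 targets 12 of 16 fell, Trp53inp1 by 2.55 and Btg2 by 1.75, while Trp53 itself rose (0.87 ± 0.09). Apoptosis genes rose in 5 and fell in 9 of 21 cases (Casp8 1.17 ± 0.10, Fas −1.46 ± 0.12), and elongation genes rose in 4 and fell in 11 of 22 (Ssrp1 1.09 ± 0.09, Polr2a −0.55 ± 0.09).

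Members differed among themselves in Klf2 and Ccr9. The following splits were chosen after the data were seen, use the values of the same cells and are descriptions with no test. After each of the members without dendritic RNA was thinned to 1500 UMIs, 29 of 86 in control 1, 41 of 132 in control 2, 41 of 138 in cKO 1 and 54 of 166 in cKO 2 held Klf2 but no Ccr9 (33.7%, 31.1%, 29.7% and 32.5%). Ccr9 without Klf2 was held by 24.4%, 27.3%, 29.0% and 27.1%. Neither group was absent or dominant in any library. In a separate random thinning of all members, the 6 included, Klf2 was found in 46.0%, 46.3%, 42.4% and 51.2%, and in 4.86%, 3.14%, 4.14% and 3.32% of DP-gated cells at the same depth (73.6%, 73.1%, 70.5% and 69.0% of members before thinning).

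Members with Klf2 alone and members with Ccr9 alone were compared in 20 other genes. Of 11 that had been called higher in CD8 SP than in DP-gated cells, 6 had higher CPM in the Klf2 members of every library. Ms4a4b measured 1678, 1609.8, 1203 and 1198 CPM in the Klf2 members and 539.7, 537, 767 and 429.6 CPM in the Ccr9 members. H2-K1 measured 1931, 1854, 1724 and 1704 CPM against 667, 1093, 1300.0 and 1067, and H2-Q7 276, 374, 260.2 and 222 against 0, 74.1, 33.3 and 163. Ifi27l2a and S1pr1 were among the others. The remaining 5 were mixed: Il7r measured 69.0, 195, 130.1 and 136 CPM in Klf2 and 95.2, 148, 233 and 148 CPM in Ccr9 members, and Il7r, Cd69 and Trac were each higher with Klf2 in 1 library, Ccr7 in 3 and Tesc in none. All 4 genes called lower than in DP-gated cells (Satb1, Bcl11b, Cd28 and Sox4) were lower in the Klf2 members of every library. Satb1, a chromatin organizer of thymocytes, measured 689.7, 667, 764 and 889 CPM against 3111, 2444, 1717 and 2326, and Bcl11b 276, 455, 309 and 642 against 889, 944, 850.0 and 829.6. Runx3 measured 229.9, 276, 244 and 284 CPM in Klf2 members and 317, 370.4, 633 and 622 in Ccr9 members. The 5 compared genes without a test against DP-gated cells were mixed, with Nkg7 and Dapl1, genes of the rule, and Mki67 higher with Klf2 in 4 libraries, Itgae in 3 and Runx3 in none.

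**Figure D4:**
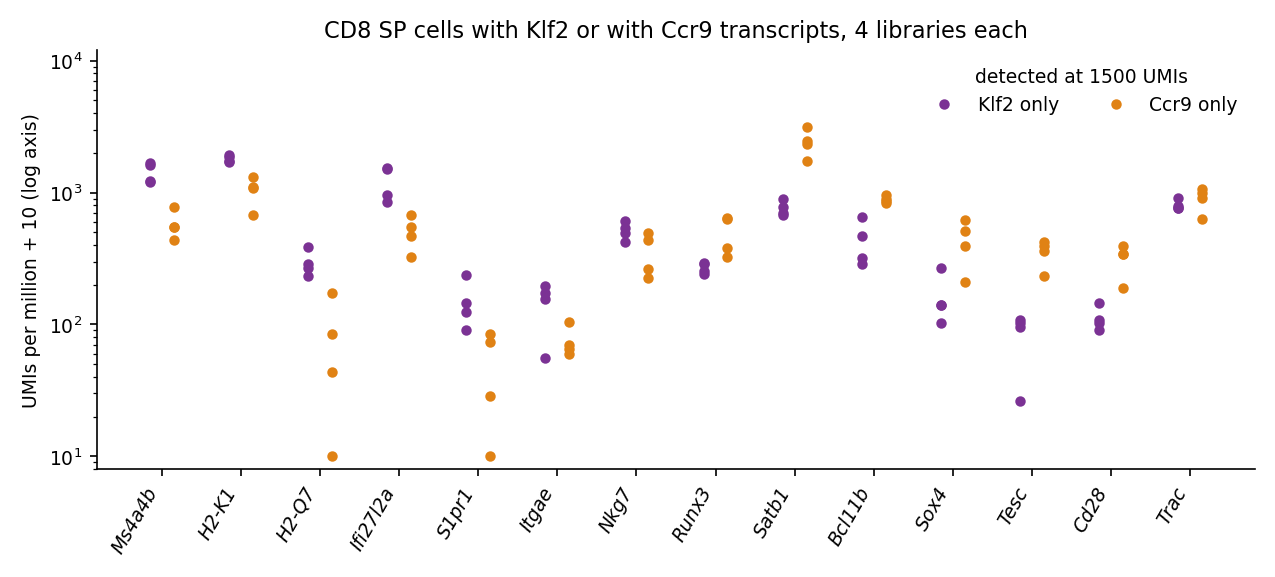
Levels of 14 genes in CD8 SP members that held only Klf2 (purple) or only Ccr9 (orange) after thinning to 1500 UMIs, as CPM plus 10 on a log axis, 1 point per library. Ms4a4b, H2-K1 and H2-Q7 are higher with Klf2, and Satb1, Bcl11b and Runx3 with Ccr9, in all 4 libraries.

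Cycling members, with at least 1 UMI of Mki67 or Top2a, numbered 30, 43, 59 and 46, or 34.5%, 32.1%, 42.4% and 27.4% of members, a share that also depends on depth per cell. Free RNA of Mki67 and Top2a was not read, and its part in this share was not tested. The chromatin protein gene Hmgb2 measured 1321, 1499.8, 1006 and 1631 CPM in them and 294, 240.4, 287 and 272 CPM in the other members. Ccr9 measured 218, 266, 224 and 233 CPM in cycling and 523, 532, 465 and 476 CPM in other members, and Klf2 574, 907, 627 and 642 against 469.6, 623, 498 and 544 CPM. In every library the cycling members thus had less Ccr9 and more Klf2 RNA than the others.

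Between genotypes 8 genes of CD8 SP cells were called in the fit without pairing, all lower in cKO. Fold changes here are log2 of cKO over control from 2 libraries each, without pairing, and edgeR's quasi-likelihood test with Benjamini-Hochberg adjustment called those 8 of 7852 genes (0.102%), none higher (0.0%). Before adjustment 506 genes had p under 0.05, and the median of all genes was −0.01. Without the 6 members with dendritic RNA 1 of 7774 genes was called (0.0129%), with 487 at unadjusted p under 0.05. None was called among the 509 members with CD3 and Trac transcripts (498 at unadjusted p under 0.05). Leaving out members with outlying UMI totals gave 9 calls, all higher and none shared with the 8, and leaving out 1 library gave 41 calls (without cKO 1), 20 (without cKO 2), 38 (without control 1) and 44 (without control 2). With the replicate number as a block 32 genes were called, 15 higher and 17 lower, the 8 among them.

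The level of Tox4 transcripts is no check of the deletion, since this method counts transcripts from near their 3′ end and the floxed exons are internal, and where reads fell on Tox4 was not analysed here. Tox4 measured 43.3, 57.9, 47.7 and 49.4 CPM in members (−0.10 ± 0.22, adjusted p = 0.98), and the cKO libraries lay within the range of the controls. These values do not check the labels.

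Igfbp4, a binding protein of insulin-like growth factors at chr11:99041244-99054392, was the gene called with and without the 6 members. It measured 311 and 356 CPM in the controls and 185 and 173 CPM in cKO, from 244, 387, 202 and 179 UMIs. Both cKO libraries lay below both controls (−0.92 ± 0.15, adjusted p = 0.016), and without the 6 members the change was −0.94 ± 0.15 (adjusted p = 0.0102). A single member of control 2 held 100 of its UMIs, and with the richest member of each library left out the levels were 288, 268, 174 and 162 CPM. Across the alternatives the fold change ran from −1.30 to −0.59 and the adjusted p from 0.000152 to 0.464. The call ended without cycling cells, without the filter on low counts, at a mitochondrial limit of 5%, with 1 Cd4 UMI allowed, without UMI outliers and among members with CD3 and Trac transcripts (adjusted p = 0.464, 0.286, 0.276, 0.268, 0.0598 and 0.0557).

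Of the other 7 called genes, Cst3 and Ppt1 were tested without the 6 members and not called, and Irf8, Xcr1, Mpeg1, Naaa and Plbd1 then did not pass the filter on low counts. Most of the 7 are known from dendritic cells or lysosomes. Cst3, which encodes cystatin C, measured 889.6 and 690.5 CPM in the controls and 214 and 185 in cKO (−1.999 ± 0.15, adjusted p = 1.1e-05), and 128, 102, 103 and 118 CPM without the 6. Irf8, a transcription factor of dendritic cells, measured 95.6, 79.1, 11.9 and 11.6 CPM (−2.88 ± 0.26) and 9.17, 28.5, 6.47 and 7.92 without them. Xcr1, the receptor of Xcl1, had 31, 21, 0 and 0 UMIs, at least 10.4-fold lower in cKO when the floor of 3 UMIs per library is used for the zeros (adjusted p = 0.0052). It rested on few cells, since 1 member of control 1 held 30 of its UMIs and 1 member of control 2 held 21. Without the 6 it had 1, 0, 0 and 0 UMIs. The controls lay above both cKO libraries for all 3 with every member included. Mpeg1, the pore-forming perforin-2 (−3.62 ± 0.48), the lysosomal amidase Naaa (−2.998 ± 0.44), the phospholipase-like Plbd1 (−2.58 ± 0.42, or −3.47 without cKO 2) and the lysosomal thioesterase Ppt1 (−1.30 ± 0.19) completed the list. Ppt1 kept the same sign without the 6 (−0.56 ± 0.22, adjusted p = 0.71). With DESeq2 the calls of Naaa and Ppt1 ended (adjusted p = 0.052 and 0.057), and that of Naaa also ended without control 2 (−2.57).

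No gene was called higher in cKO in the fit to all members without the block. The 5 with the smallest p were Tspoap1, at 3.82 and 1.84 CPM in controls against 21.1 and 19.4 CPM in cKO (2.84 ± 0.55, adjusted p = 0.086), the kinetochore gene Knl1, at 2.55 and 11.03 against 27.5 and 37.8 (2.10 ± 0.44, adjusted p = 0.16), the chromatin remodeller Chd3, at 119.8 and 178 against 256 and 288 (0.83 ± 0.17), the ubiquitin ligase Mycbp2, at 201 and 158 against 286 and 314 (0.73 ± 0.15), and the mitochondrial mt-Nd5, at 271 and 250.1 against 371 and 470.0 (0.67 ± 0.14). In each the cKO libraries lay above both controls, as they did for 18.4% of all genes tested (below for 17.6%). Alternatives without the block called each of them: Tspoap1 at a marker sum of at least 2 and without control 1 (3.37), Knl1 and Chd3 without cKO 1 and without control 2 (Knl1 at 3.59), Mycbp2 without cycling cells, without cKO 1 and without control 1, and mt-Nd5 without cKO 1. With the replicate number as a block all 5 were called (adjusted p = 0.015, 0.0053, 0.00096, 0.0039 and 0.0042).

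Several genes were followed by name. In bulk RNA-seq of sorted TCRβ+CD8+ thymocytes, at its own thresholds, the study found Cdkn1a higher in cKO and Ntrk3, Gimap7 and Nfia affected. It proposed that Cdkn1a may contribute to impaired proliferation and the others to increased apoptosis of CD8 cells. The assay, the choice of cells and the thresholds there differ from those here. Cdkn1a, which encodes the cell cycle inhibitor p21, had 0, 1, 1 and 3 UMIs in all members of the libraries, too few to test. Ntrk3 measured 20.4 and 21.1 CPM in controls against 29.4 and 25.2 CPM in cKO (0.37 ± 0.31, adjusted p = 0.89), Gimap7 53.5 and 27.6 against 33.0 and 22.3 (−0.51 ± 0.34, adjusted p = 0.87), Nfia 11.5 and 13.8 against 4.59 and 11.6 (−0.68 ± 0.51, adjusted p = 0.88) and Tmem126a 48.4 and 30.3 against 17.4 and 17.4 (−1.15 ± 0.32, adjusted p = 0.56). None of these passed the test with all 4 libraries. Tmem126a was called without control 2 (−1.48, adjusted p = 0.023), and leaving out 1 library moved Gimap7 between −0.96 and −7.4e-05 and Nfia between −1.44 and −0.18. Mki67 measured 52.3 and 74.5 CPM in controls and 97.3 and 172 in cKO (1.03 ± 0.24, adjusted p = 0.299), the largest value among 19 proliferation genes whose median was −0.02, and the blocked fit called it (adjusted p = 0.00098).

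In the fit to all members without the block no gene of the 16 pathway lists was called between genotypes, and with it Mki67, Ccl4 and Ifi27l2a of those lists were. Without the block, Mki67 was called when UMI outliers were left out (1.16, adjusted p = 0.047) and Ccl4, Xcl1 and Tnfrsf9 when cycling cells were. Leaving out 1 library gave calls in the lists too, among them Ccl4 and Xcl1 without cKO 1 and without either control, and Ifi27l2a, Mki67 and Top2a without cKO 1 and without control 2. In proximal TCR signalling 13 of 19 genes had both cKO libraries above both controls and 0 below (median 0.19), beside 18.4% and 17.6% of all genes. Among them the phospholipase Plcg1 measured 40.8 and 44.1 CPM in controls and 58.7 and 66.9 in cKO (0.53 ± 0.21, adjusted p = 0.73). Without the 6 members 10 of the 19 lay so. The medians of the other lists were −0.25 for the GIMAP genes, −0.15 for TCR and CD3 chains, −0.13 for immediate-early genes, −0.08 for MHC class I, −0.04 for interferon-stimulated genes, −0.03 for both CD8 lineage and apoptosis genes, −0.02 for the Tox family with the PNUTS-PP1 complex, 0.04 for elongation, 0.05 for cytokine receptors, 0.06 for TCR responses, 0.17 for both homing genes and p53 targets and 0.54 for the 7 tested cytotoxic genes.

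The difference between the genotype effects in CD8 SP and in CD4-gated cells was tested as such. It passed for 3 of 8497 genes (0.0353%, 391 at unadjusted p under 0.05), Cst3, Irf8 and Xcl1, and without the 6 members for Xcl1 alone. The call of Irf8 ended without cKO 1 (−2.64, adjusted p = 0.83) and that of Xcl1 without cKO 1 and without control 2. Xcl1 had 20, 159, 144 and 17 UMIs in CD8 SP cells, high in control 2 and cKO 1 and low in the other two.

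**Figure D5:**
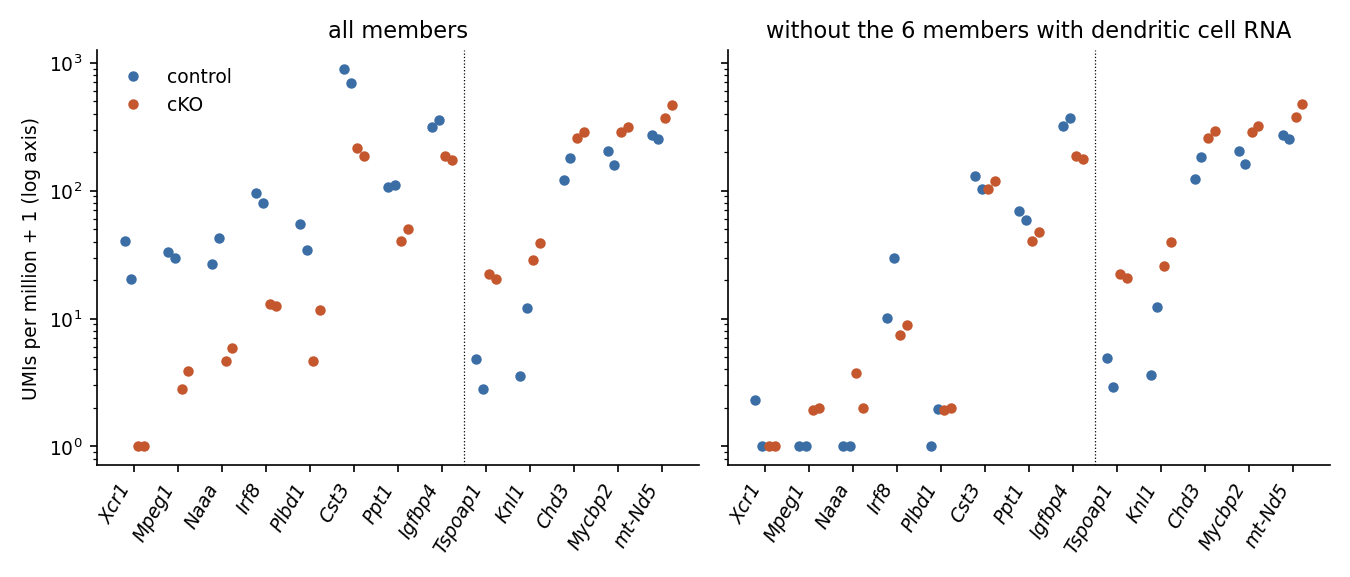
Levels of the 8 genes called lower in cKO (left of the dotted line) and the 5 with the smallest p among those higher (right) in CD8 SP cells, as CPM plus 1 on a log axis, 1 point per library (control blue, cKO orange), with all members and without the 6 that carried dendritic RNA. Igfbp4 is lower in both cKO libraries either way, while Cst3 lies between 102 and 128 CPM in all 4 libraries once the 6 are left out.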

How the data were processed

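Thymocytes of 2 control and 2 cKO samples were profiled with the Chromium 3′ kit. Per the study's methods, the authors aligned reads to GRCm38 with cellranger 6.1.1 at default parameters, and deposited 1 matrix of raw UMI counts (32285 genes by cells) for each library, neither normalized nor pooled. UMIs count each captured molecule once.

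The 4 matrices held 57354 cells and 204258388 UMIs. Cells were kept and gated on raw UMIs as the report states. Unlike the study, which removed the top and bottom 2.5% of UMI totals and doublets, the main gate kept both, and their removal (doublets as the 5% highest scores of Scrublet in scanpy 1.11.5) was an alternative. The members, gene lists and named genes were chosen with earlier results of these data known. Counts were summed per library and gate and tested with edgeR 4.0.16 (quasi-likelihood F test, TMM, filterByExpr, Benjamini-Hochberg, adjusted p under 0.05) in R 4.3.3, with genes of the gates left out. DESeq2 1.42.0 was an alternative. The quasi-likelihood step shares information on spread across genes, which allows p-values at 2 libraries a group. Shares were compared by exact permutation tests, and intervals are exact (Clopper-Pearson) at 95%. CPM divide by the summed UMIs of a gate. Positions are 1-based on GRCm38 with GENCODE release M21, known for 32158 of 32285 genes. In the gene lists, 1 of 340 genes was not found in the files. Up to 10 genes per direction against CD4-gated cells and 5 against DP-gated cells were named by the largest change among called genes with mean logCPM of at least 5 and 1 direction in all 4 libraries. Up to 10 genotype calls per direction without overlap were named, with the 5 of smallest p where under 3 were called, and up to 4 genes per list, called ones first. Tox4, Cdkn1a, Ntrk3, Gimap7, Nfia, Tmem126a and Tspoap1 were named whatever their values. The tests were first run on simulated counts with known changes.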

Additional observations from a re-analysis of the deposited data

Results flagged for a closer look

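For 3 genes the genotype effect in CD8 SP cells differed from that in CD4-gated cells of the same libraries, by edgeR's quasi-likelihood test of the difference itself (8497 genes, 0.0353% called, 391 at unadjusted p under 0.05). Each value is the log2 genotype effect (cKO over control) in CD8 SP minus that in CD4-gated cells.

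For Xcl1, a chemokine of CD8 and natural killer cells, the difference was −4.03 ± 0.68 (adjusted p = 0.012), and −4.06 ± 0.67 without the 6 members with dendritic RNA (adjusted p = 0.0072). It had 20, 159, 144 and 17 UMIs in CD8 SP and 1, 2, 25 and 4 in CD4-gated cells. Of the 159 UMIs of control 2, 136 lay in 2 members, and of the 144 of cKO 1, 119 lay in 1. Without control 2 the difference was −1.34 (adjusted p = 0.94), without cKO 1 it was −3.44 (adjusted p = 1), and DESeq2 gave −3.38 (adjusted p = 1).

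For Cst3 the difference was −2.39 ± 0.21 (adjusted p = 1.5e-07) and for Irf8 −3.33 ± 0.62 (adjusted p = 0.034). Without the 6 members they were −0.46 ± 0.24 (adjusted p = 1) and −2.22 ± 0.73 (adjusted p = 1).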

How the results depend on the processing

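With 2 libraries per group, counts of calls rest on each library. Between genotypes the 8 calls became 0 with CD3 and Trac transcripts required, 15 without cycling cells, 1 without dendritic RNA, 0 with 1 UMI of the other coreceptor allowed (514 at unadjusted p under 0.05), 2 without the filter on low counts (which tests more genes) and 20 to 44 without 1 library, with 6 by DESeq2. Against CD4-gated cells the 1180 calls became 162 at a mitochondrial limit of 5% (which removes cells), 759 without cycling cells, 389 with DESeq2 and 722 to 963 without 1 library. Against DP-gated cells the 5725 became 3210 at that limit and 5031 to 5437 without 1 library. The 3 genes whose genotype effect differed between the gates became 1 at that limit, 10 without UMI outliers, 1 without dendritic RNA, 0 with 1 coreceptor UMI allowed (330 at unadjusted p under 0.05), 1 with DESeq2, 9 without the filter and 1 to 16 without 1 library, the lowest without cKO replicate 1 and the highest without control replicate 1. The alternatives on dendritic RNA and on 1 coreceptor UMI were chosen after seeing the data. Where no construction is named, the cause was not tested.

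The share difference ran from −0.0843 (without cKO replicate 1) to 0.597 percentage points, and the ratio difference from −0.389 (without cKO replicate 2) to 0.722, with −0.279 without control replicate 1 and −0.505 after thinning. Of the values for named genes 2207 kept direction and side of the threshold, 122 lost the call, 20 gained it and 11 reversed. The reversals were Gzma (0.10) and Ly6a (0.0234) against CD4-gated cells with 1 coreceptor UMI allowed, Tox4 there at the 5% limit (0.0021) and without cycling cells (0.0599), Tox4 between genotypes without UMI outliers (0.0057) and without control replicate 2 (0.15, within −0.27 to 0.15 without 1 library), Cst3 without UMI outliers between genotypes (0.76) and in the difference of effects (0.29), and H2-Eb1 (−0.19), H2-Aa (−0.15) and H2-Ab1 (−0.37) against CD4-gated cells without dendritic RNA.

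The study describes 2 pairs of littermate control and cKO mice, and the labels do not say that a shared number marks a pair. Deviations of same-numbered libraries correlated at 0.101 over 7860 genes, and with 2 pairs this does not settle the pairing. A fit with the replicate number as a block called 32 genes between genotypes, 15 higher and 17 lower.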
